A study of Mus musculus with 11 samples.

Results

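Keratin, uroplakin and mesothelial genes were followed in epididymal white adipose tissue (eWAT), the visceral fat pad attached to the epididymis of male mice. The 10 genes were Krt14, Krt8, Krt18, Krt19, Upk1b, Upk3b, Msln, Wt1, Lrrn4 and Gpm6a, taken as a list of gene symbols from the 15453 genes measured, and all 10 were present. Tissue came from 11 male C57BL/6J mice that were 16 weeks old, had been fed a high fat diet for the last 8 weeks and were housed singly. The 6 wildtype (WT) mice carried intact Mest alleles, and the 5 pKO mice had inherited an inactivated Mest allele from the father. That allele lacks exon 3 after germline deletion with EIIa-cre, so the inactivation is in every tissue and not restricted to fat. Mest (mesoderm specific transcript) is imprinted and expressed from the paternal allele. RNA was isolated from the whole crushed pad, and gene expression was measured by serial analysis of gene expression (SAGE), which counts 1 short tag per transcript. Values are normalised tags, the number of tags of a gene divided by the size factor of the library.

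Tag totals per library were 9659740 to 14825727 for WT mice and 11320342 to 14626803 for pKO mice. WT mice had 25107 ± 2672 normalised tags of Mest (SD, n = 6) and pKO mice 1663 ± 566 (SD, n = 5), so the tissue of each mouse matched its labelled genotype. Adipocyte markers were the most abundant of the marker lists, with summed levels of 705608 normalised tags or more in each mouse. Libraries of 3 mice stood apart. Epcam, an adhesion protein of simple epithelia that mesothelial cells typically lack, was at 161 and 47.3 in WT mice 4 and 5 and at 203 in pKO mouse 1. In the other WT mice it did not exceed 1.67, and in the other pKO mice it did not exceed 18.3. Values are therefore also given without these 3 mice, a choice made after their levels were seen.

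The mesothelium is a single layer of flattened cells that lines the body cavities and covers visceral organs, fat pads included. It is of mesodermal origin, yet it carries epithelial features, such as the simple keratins KRT8, KRT18 and KRT19 and the uroplakins UPK1B and UPK3B. Mesothelin (MSLN) and the transcription factor WT1 are its classical markers. KRT14 is a keratin of the basal layer of stratified epithelia. LRRN4 is a leucine-rich repeat membrane protein found in mesothelium, and GPM6A is a membrane glycoprotein best known from neurons that is also found there. In the bulk tissue measured here, more cells of a type and more RNA per cell cannot be told apart.

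SAGE reads each transcript at its 3'-most CATG, the site cut by NlaIII. The tags below were read from the annotated transcripts (GENCODE M21, GRCm38). They are predictions, since the tags that the authors matched to each gene were not available. They are shown because the values of these genes would rest on tags of this kind. The cut site is in capitals and the following 21 bases are in lower case.
Krt8: CATGagcattcatacgaagaccacc
Krt18: CATGcaaactgtgcagaagacaact
Krt19: CATGgacatcaagtccaggctggag
Upk1b: CATGccagctattcaaacaagtgat
Upk3b: CATGggcggagtggggtggagggga
Msln: CATGgacatagccactttcaagagg
The Krt8 tag lies in coding sequence of exon 8, on the minus strand at chr15:101997673-101997697. The Krt18 tag lies in coding sequence of exon 7, on the plus strand at chr15:102031871-102031895. That tag is also found in the pseudogene Gm5200, so the Krt18 values may include tags of the pseudogene, and they are uncertain to that extent. The Krt19 tag, at chr11:100140994-100141018 on the minus strand, lies in coding sequence of exon 6. The tags of Upk1b (chr16:38773299-38773323, minus strand, exon 8) and Upk3b (chr5:136046240-136046264, plus strand, exon 6) are in the 3' untranslated regions. The Msln tag lies in coding sequence of exon 14, at chr17:25749470-25749494 on the minus strand. Other annotated transcripts would give other tags for Upk1b, Msln and Wt1, with 2, 4 and 4 distinct tags per gene. No other annotated gene shared the tag of any of the other 9 genes.

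The 10 genes were chosen by a list drawn up with their normalised tags in these WT and pKO mice known, so their differences between genotypes are described and not tested. Log2 differences are pKO minus WT on the scale of log2(normalised tags + 1). All 10 had a higher mean log2 value in pKO mice, as did 49.6% of all genes. The median log2 difference of the 10 genes was 0.57, against -0.0025 over all genes. Krt19 alone had every pKO mouse above every WT mouse, a pattern found in 0.569% of all genes. Summed over the 10 genes, WT mice had 1803 to 2550 normalised tags and pKO mice 2604 to 4114. Gpm6a, Upk1b and Krt19 made up most of this sum, with WT means of 743, 499 and 374 in a mean sum of 2147. How often the sums of other genes separate the genotypes was not counted.

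**Figure D1:**
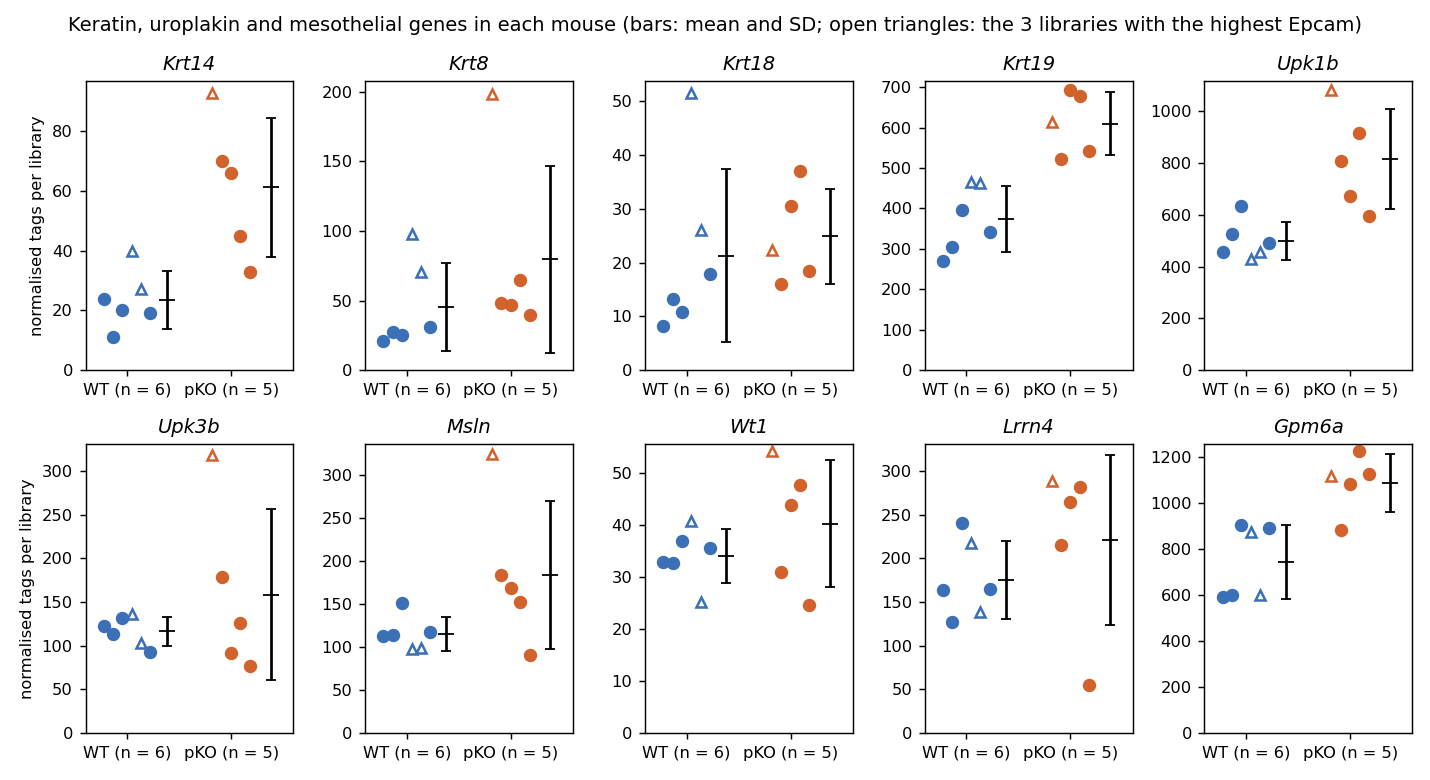
Normalised tags (y axis, linear from 0) of each of the 10 genes in the 6 WT (blue) and 5 pKO (orange) mice. Each point is 1 mouse, black bars give the mean and SD, and open triangles mark WT mice 4 and 5 and pKO mouse 1, the libraries with the highest Epcam. Krt19 is the gene in which the genotypes do not overlap, and pKO mouse 1 is the highest mouse in 7 of the 10 genes. The share of all genes that are highest in pKO mouse 1 was not counted.

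Krt14 had normalised tags of 11.3 to 39.8 with a median of 21.9 in WT mice. In pKO mice 1 to 5 its normalised tags were 92.7, 69.9, 66.1, 45.0 and 32.7. Of the 5 pKO mice, 4 were above the highest WT mouse, which was WT mouse 4. The WT mean of 23.5 ± 9.60 (SD, n = 6) compared with 61.3 ± 23.3 (SD, n = 5) for pKO mice, a 2.61-fold ratio and a log2 difference of 1.35 (standard error 0.32), the largest of the 10 genes. Without the 3 mice with high Epcam the ratio was 2.89 and the genotypes no longer overlapped.

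The simple keratins differed among themselves. Krt8, the type II keratin of simple epithelia, had normalised tags of 21.0 to 98.1 with a median of 29.2 in WT mice. In pKO mice 1 to 5 it had 198, 48.1, 46.8, 64.4 and 39.9 normalised tags. The highest values in each genotype were those of the 3 mice with high Epcam. The WT mean was 45.5 ± 31.4 (SD, n = 6) against 79.5 ± 67.0 (SD, n = 5) for pKO mice, and the log2 difference was 0.75 (standard error 0.46). Without these 3 mice the means were 26.1 and 49.8, the ratio was 1.91 and the ranges were apart.

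Krt18, the type I partner of KRT8 in simple keratin filaments, was the least abundant of the 10 genes in WT mice. Its normalised tags ranged from 8.22 to 51.5 with a median of 15.6 in WT mice, and WT mouse 4 had the highest value of all 11 mice. In pKO mice 1 to 5 it was at 22.3, 16.0, 30.5, 37.1 and 18.4 normalised tags, all within the WT range. The ratio of the means was 1.17 with all mice and 2.03 without the 3 mice with high Epcam, where the ranges still overlapped.

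Krt19, a type I keratin of simple epithelia and mesothelium, was the most abundant of the 4 keratins. Its normalised tags ranged from 270 to 465 with a median of 369 in WT mice. In pKO mice 1 to 5 the normalised tags were 613, 521, 694, 678 and 542. The means were 374 ± 81.3 (SD, n = 6) and 610 ± 77.6 (SD, n = 5), a ratio of 1.63 and a log2 difference of 0.73 (standard error 0.16). Without the 3 mice the ratio was 1.85 and the ranges stayed apart.

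Among the uroplakins, Upk1b, a tetraspanin, was the more abundant. It had 431 to 634 normalised tags with a median of 475 in WT mice and 1084, 807, 675, 916 and 598 in pKO mice 1 to 5. Only pKO mouse 5 lay within the WT range. The means were 499 ± 73.7 (SD, n = 6) and 816 ± 193 (SD, n = 5), a log2 difference of 0.69 (standard error 0.16), and without the 3 mice with high Epcam the log2 difference was 0.50. Upk3b had 92.6 to 136 normalised tags with a median of 118 in WT mice and 318, 179, 91.6, 126 and 76.7 in pKO mice 1 to 5. The pKO mice thus lay on both sides of the WT range, with 2 above and 2 below it. The log2 difference of Upk3b was 0.26 (standard error 0.30) with all mice and -0.04 without pKO mouse 1.

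Msln, the gene of mesothelin, had 98.1 to 151 normalised tags with a median of 113 in WT mice and 324, 183, 169, 153 and 90.1 in pKO mice 1 to 5. All pKO mice but mouse 5 were above the highest WT mouse, and mouse 5 was below the lowest. The log2 difference of 0.57 (standard error 0.26) was 0.33 without pKO mouse 1 and 0.79 without pKO mouse 5. Wt1 had 25.1 to 40.8 normalised tags with a median of 34.2 in WT mice and 54.1, 30.9, 43.8, 47.7 and 24.6 in pKO mice 1 to 5, with 3 pKO mice above the WT range. Its log2 difference was 0.20 (standard error 0.23). Wt1 and Krt18 were the genes among the 10 whose mean did not reach 50 in either genotype.

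Lrrn4 had 127 to 240 normalised tags with a median of 164 in WT mice and 288, 215, 265, 282 and 55.3 in pKO mice 1 to 5. The value in pKO mouse 5 was the lowest of the 11 mice, while mice 1, 3 and 4 were above the WT range. The log2 difference of 0.17 (standard error 0.37) was 0.61 without pKO mouse 5 and 0.02 without pKO mouse 1. Gpm6a was the most abundant of the 10 genes, with 592 to 905 normalised tags and a median of 736 in WT mice. In pKO mice 1 to 5 it was at 1118, 882, 1084, 1225 and 1127, with mouse 2 alone within the WT range. Its means were 743 ± 161 (SD, n = 6) and 1087 ± 126 (SD, n = 5), a log2 difference of 0.57 (standard error 0.16), and 0.55 without the 3 mice with high Epcam.

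**Figure D2:**
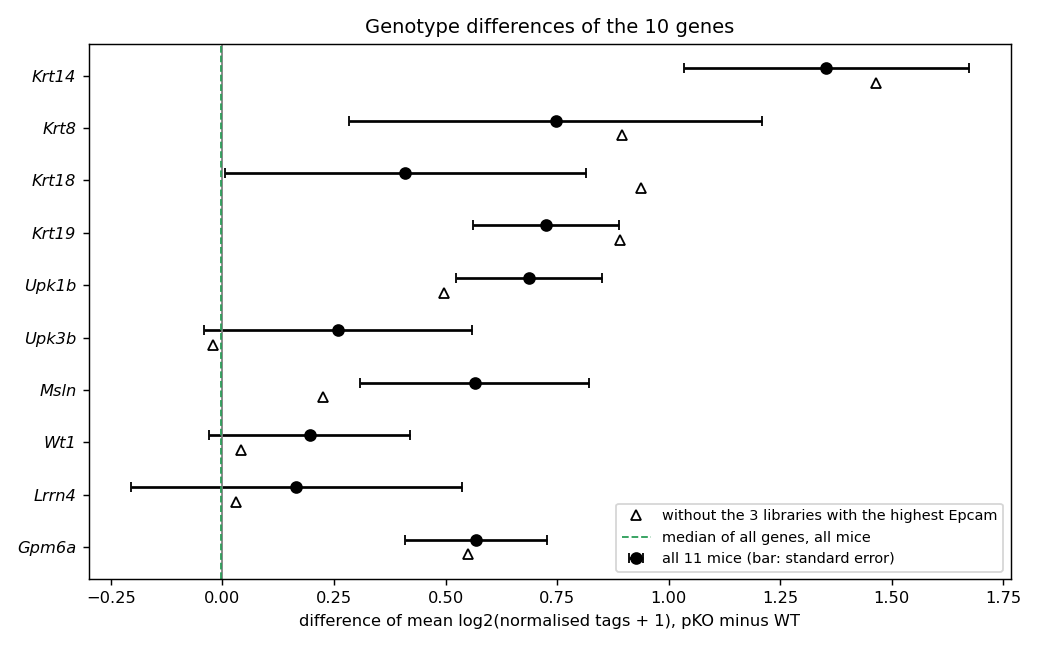
Log2 difference between pKO and WT means (x axis) for each of the 10 genes (y axis), with all 11 mice (filled circles, bars are standard errors) and without WT mice 4 and 5 and pKO mouse 1 (open triangles). The dashed line is the median of all genes. Without the 3 mice, Krt14, Krt8, Krt18 and Krt19 move to the right, to 1.46, 0.90, 0.94 and 0.89, and Upk3b, Wt1 and Lrrn4 move to -0.02, 0.04 and 0.03.

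Leaving out the 3 mice with high Epcam thus moved the keratins and the mesothelial genes in opposite directions. The log2 differences of Krt14, Krt8, Krt18 and Krt19 were all greater without them. The differences of Upk1b, Upk3b, Msln, Wt1, Lrrn4 and Gpm6a were all smaller. This contrast depended on which of the 3 mice were left out, 2 of them WT and 1 pKO. Without pKO mouse 1 alone the difference of Krt8 also fell, to 0.35, as did those of Upk1b (0.58) and Msln (0.33). Without WT mouse 4 alone the difference of Krt8 was 1.01. pKO mouse 1 was the highest mouse in 7 of the 10 genes. pKO mouse 5 was the lowest in 4 and WT mouse 1 in another 4, which were Krt8, Krt18, Krt19 and Gpm6a. The share of all genes that were highest or lowest in these mice was not counted, so these counts cannot be set against it. The spread among pKO mice exceeded that among WT mice for Upk1b, Upk3b, Msln, Wt1 and Lrrn4. The coefficient of variation of Upk3b was 14.3% in WT and 61.7% in pKO mice, and that of Msln was 16.9% and 46.9%. Gpm6a and Krt19 went the other way, with 21.7% and 11.6% for Gpm6a and 21.8% and 12.7% for Krt19, as did Krt18, with 75.4% and 35.2%. For Krt8 the values were 69.0% and 84.3%.

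Covariation across mice was examined with each genotype centred on its own mean, which takes no account of the difference between genotypes. Correlations are given as a description over 11 mice that share the depth and composition of their libraries. Over the 45 pairs of the 10 genes the median Pearson r was 0.42, and 17 pairs had an r of at least 0.5. That share of 37.8% compares with 11.7% of all pairs among the 9906 genes with a mean of at least 50, whose median r was -0.0026. Upk1b, Upk3b, Msln, Wt1 and Lrrn4 formed one group, with a median r of 0.72 and all 10 pairs at 0.54 or more. The highest was between Upk1b and Msln (r = 0.85, Spearman's rho = 0.71). Krt8, Krt18 and Krt19 formed another, with r of 0.61 to 0.83. Between these groups the median r was 0.26. Without the 3 mice with high Epcam it was 0.45, against 0.69 within the mesothelial group and 0.69 within the keratin group. Krt14 was placed in neither group, with r of 0.42 to 0.69 with Krt8, Krt18 and Krt19. Its r with Upk1b, Upk3b, Msln, Wt1 and Lrrn4 were 0.13 to 0.61. Without the 3 mice with high Epcam, the median r of Krt14 with Krt8, Krt18 and Krt19 fell from 0.46 to -0.11. With the mesothelial group its median r was 0.47 with all mice and 0.48 without the 3 mice. Gpm6a, set apart after its values were seen, had a median r of 0.20 with the other 9 genes.

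**Figure D3:**
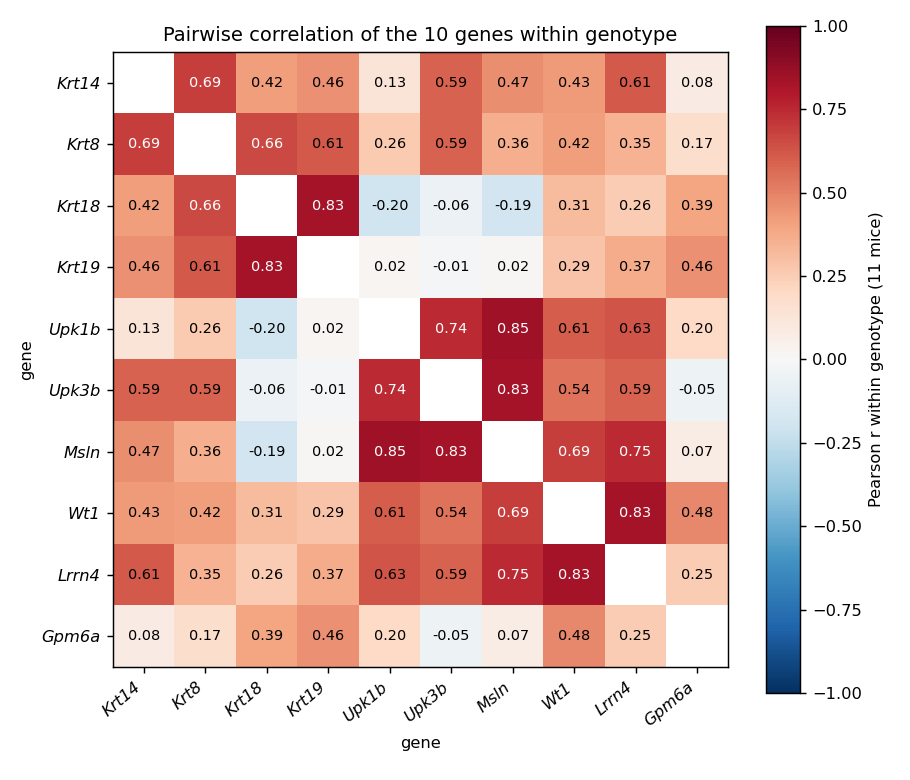
Pearson r of log2(normalised tags + 1) for each pair of the 10 genes (both axes), with each genotype centred on its mean, over 11 mice. Red is positive and blue negative on a scale of -1 to 1. Upk1b, Upk3b, Msln, Wt1 and Lrrn4 form a red block with r of 0.54 to 0.85, and Krt8, Krt18 and Krt19 a block with r of 0.61 to 0.83.

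The mesothelial group rested largely on a few mice. When the 2 mice farthest from the median of the first gene of each pair were left out, mainly pKO mice 1 and 5, its median r was 0.22. Without pKO mouse 5 alone it was 0.38. In the 6 WT mice alone it was 0.39. The pair of Upk1b and Msln had an r of 0.63 without the 2 mice and 0.94 in WT mice. Wt1 and Lrrn4 had 0.83 with all mice, 0.63 without pKO mouse 5 and WT mouse 5, and 0.72 in WT mice. In contrast, Upk3b and Msln went from 0.83 to 0.23 without pKO mice 1 and 5 and to 0.18 in WT mice. In the keratin group other mice were left out. These were pKO mouse 1 and WT mouse 4 for the pairs with Krt8, and WT mice 4 and 1 for Krt18 and Krt19. The keratin group had a median r of 0.71 without the mice so left out and 0.85 in WT mice.

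Upk3b was used as an anchor for a test across all genes, in which limma related log2(normalised tags + 1) of each gene to that of Upk3b with genotype in the model. Of the 15452 other genes, 746 (4.83%) passed with an adjusted p of 0.05 or less, and 2.10% were called with a positive slope. The number called fell to 63 without pKO mouse 1, to 182 without pKO mouse 5 and to between 392 and 472 without WT mouse 1, 2, 3 or 6. The 10 genes were listed with their covariation in these mice known, so their own slopes are given as a description with no test. Of the other 9 genes Msln had the highest r with Upk3b, 0.83 over the 11 mice. Its slope was 0.69 per log2 unit of Upk3b (standard error 0.16). The slope of Msln was 0.55 without pKO mouse 1 and 0.52 without pKO mouse 5. The r of Upk1b, Krt8, Krt14, Lrrn4 and Wt1 with Upk3b were 0.74, 0.59, 0.59, 0.59 and 0.54. Krt18, Krt19 and Gpm6a had r of -0.06, -0.01 and -0.05 with Upk3b.

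The genes whose pattern within genotype was most like that of Upk3b were not the mesothelial ones. Among genes with a mean of at least 50 and outside the list, the highest r over the 11 mice were those of Srsf7 (0.97), Plcd3 (0.97), Kdelc2 (0.96), Sumo3 (0.96), Eml2 (0.95), Wdr78 (0.95), Foxn3 (0.95), Zfp84 (0.94), Cby1 (0.94) and Ccnh (0.94). Msln ranked 261 and Upk1b 665 among the 9905 genes. The lowest r were those of Necap2 (-0.99), Gstz1 (-0.97) and Ppp3r1 (-0.96). As for Upk3b, Kdelc2 was highest in pKO mouse 1, at 2347 normalised tags, and lowest in pKO mouse 5, at 568.

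Epcam was taken as a second anchor after its values were seen. In this test 238 of the 15452 genes (1.54%) passed at the same threshold, and 1.41% were called with a positive slope. Both the anchor and the 10 genes were chosen with the values of these mice known, so the values of the 10 genes are a description with no test. Krt8 had a slope of 0.31 per log2 unit of Epcam (standard error 0.043), and its r of 0.94 ranked 10 among the 9906 genes. The slope was 0.27 to 0.33 with any 1 of the 11 mice left out and 0.07 without all 3 mice with high Epcam. Krt14, Krt18 and Krt19 had r of 0.74, 0.72 and 0.72 with Epcam. The r of Wt1, Upk3b, Lrrn4, Msln, Gpm6a and Upk1b were 0.44, 0.44, 0.37, 0.28, 0.19 and 0.10.

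**Figure D4:**
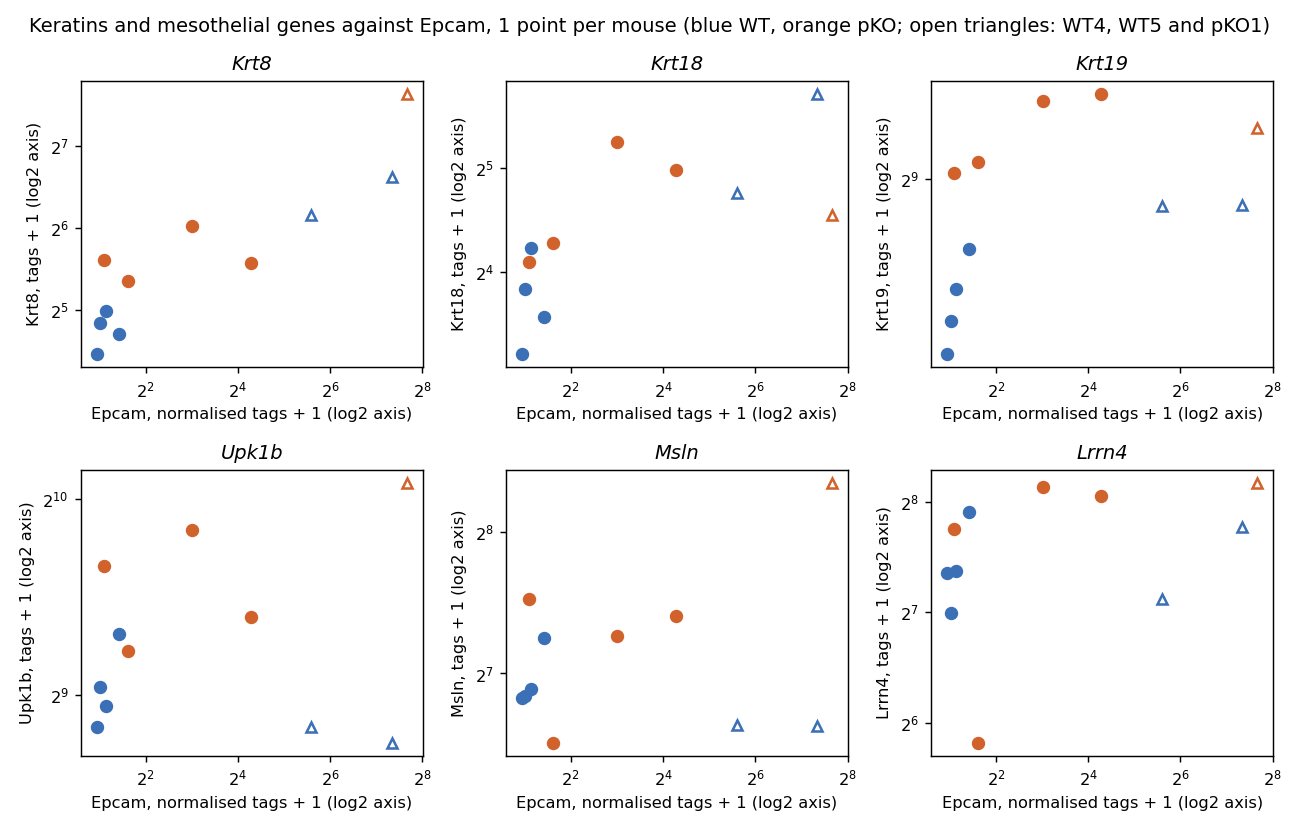
Normalised tags + 1 of Krt8, Krt18, Krt19, Upk1b, Msln and Lrrn4 (y axes, log2) against Epcam (x axes, log2), with 1 point per mouse (blue WT, orange pKO). Open triangles are WT mice 4 and 5 and pKO mouse 1. Krt8 is highest in these 3 mice, whereas WT mice 4 and 5 are among the lowest for Upk1b and Msln.

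Some but not all of the other epithelial genes were also highest in these 3 mice. Of the 25 further simple epithelial and junction genes listed, 18 were measured. WT mice 4 and 5 and pKO mouse 1 were the highest of their genotype in 7 of the 18 and not in the other 11. The 7 were Cdh1, Cldn7, Dsg2, Dsp, Esrp1, Prss8 and Epcam, the gene by which these mice were picked. The share of all genes with this pattern was not counted. Cdh1, which encodes E-cadherin, was at 58.3, 22.2 and 61.8 normalised tags in WT mice 4 and 5 and pKO mouse 1 and at 6.88 or less in the others. Cldn7, a claudin of tight junctions, was at 145, 64.6 and 130 in them and at 17.3 or less in the others. Pkp2, a desmosomal plakophilin, was at 309, 702 and 231 in them, against 841 in WT mouse 3. Summed, the 18 genes gave 2013 to 3445 normalised tags in WT mice and 2135 to 3664 in pKO mice. The sum was 2623 and 2983 in WT mice 4 and 5, lower than the 3445 of WT mouse 3, and highest among pKO mice in mouse 1. Jup, the gene of plakoglobin, which many cell types express, made up most of the mean sum, and 10 of the 18 were at 0 in at least 1 library. Of the 21 epididymal epithelial genes listed, 6 were measured. The same 3 mice were the highest of their genotype in 2 of the 6, Aqp9 and Lcn2, and not in the other 4. The summed level of the 6 genes was 66.5 to 131 in WT and 59.6 to 222 in pKO mice, highest in WT mouse 5 and pKO mouse 1. Adam7, one of them, was at 0 in 6 mice, at 13.4 in WT mouse 3, at 9.16 in pKO mouse 3 and at 7.77, 26.1 and 43.8 in WT mice 4 and 5 and pKO mouse 1. The part of these epithelial tags in the keratin values was not tested beyond leaving out the 3 mice.

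Genes outside the list were tested between genotypes with limma. A call required an unadjusted p of at most 0.05 and 50 or more normalised tags as the mean of either genotype. This held for 3.11% of all genes in the direction of higher expression in pKO mice and 3.70% in the direction of lower, whereas an adjusted p of at most 0.1 was reached by 0.0324%. With libraries scaled by their total tags, 328 genes were called higher and 732 lower, against 480 and 572. Of 30 further mesothelial genes 27 were measured, and 3 were called higher and 1 lower. With DESeq2 on the tag counts these were 5 and 0, and with edgeR 3 and 0. None of the 27 reached an adjusted p of 0.1 (smallest 0.28, limma). The median log2 difference of the 27 was 0.14. Bnc1, a zinc finger protein of mesothelium and keratinocytes, averaged 58.7 ± 7.02 normalised tags (SD, n = 6) for WT against 98.3 ± 22.2 (SD, n = 5) for pKO mice, a log2 difference of 0.71 (limma adjusted p = 0.28). Pdpn, the gene of podoplanin, had 254 ± 43.9 (SD, n = 6) and 389 ± 64.9 (SD, n = 5), a log2 difference of 0.62 (limma adjusted p = 0.28). Cxadr, an adhesion receptor, had 184 ± 52.0 (SD, n = 6) and 295 ± 105 (SD, n = 5), a log2 difference of 0.63 (limma adjusted p = 0.49). Clu, the gene of clusterin, was lower in pKO mice, at 1037 ± 104 (SD, n = 6) and 652 ± 464 (SD, n = 5), although pKO mouse 4 had 1413, the highest of all mice. Cxadr lost its call without the 3 mice with high Epcam (log2 difference 0.52), whereas Bnc1, Pdpn and Clu kept theirs in limma.

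Other mesothelial genes did not pass. Efemp1, an extracellular matrix protein and the most abundant of the 27, averaged 7470 ± 1065 normalised tags (SD, n = 6) for WT against 9180 ± 1384 (SD, n = 5) for pKO mice (log2 difference 0.30, limma adjusted p = 0.53). Krt7, the type II keratin of mesothelium and many glands, had 67.7 to 355 normalised tags in WT and 705, 500, 314, 573 and 129 in pKO mice 1 to 5. Its log2 difference of 1.04 had a standard error of 0.52 (limma adjusted p = 0.55), and its r with Epcam was 0.02.

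**Figure D5:**
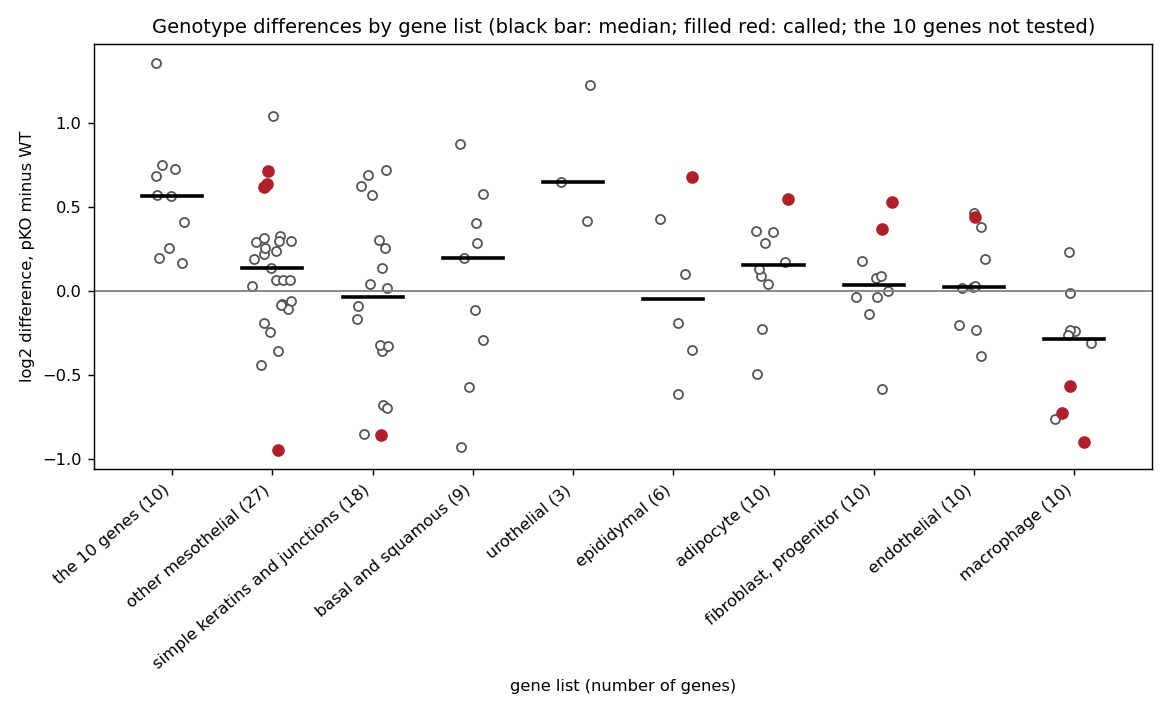
Log2 difference between pKO and WT mice (y axis) for the 10 genes and for the genes measured in each of 9 other lists (x axis, number of genes in brackets). Each point is a gene, black bars are medians, and filled red points are called by limma at an unadjusted p of at most 0.05 with a mean of at least 50; the 10 genes were not tested. The median is 0.57 for the 10 genes and 0.14 for the 27 other mesothelial genes.

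Genes of other epithelia were mostly too sparsely tagged for a call, with a mean of 50 or more for 5 of the 18 simple epithelial and junction genes, 3 of the 9 basal and squamous, 0 of the 3 urothelial and 1 of the 6 epididymal genes. Of the 9 measured basal and squamous genes, limma called 0 in either direction, with 0 at an unadjusted p of 0.05 or less at any level and 0 with edgeR or DESeq2, and Lgals7, the most abundant of them, was at 69.2 ± 13.6 (SD, n = 6) and 103 ± 45.3 (SD, n = 5). Of the 3 measured urothelial genes 0 had a mean of 50, although 2 had an unadjusted limma p of 0.05 or less, and the most abundant, Gata3, was at 13.3 ± 4.11 (SD, n = 6) and 20.7 ± 2.75 (SD, n = 5). Of the 18 simple epithelial and junction genes, St14, a membrane serine protease, was called lower in pKO mice, at 56.7 ± 17.9 (SD, n = 6) and 29.9 ± 5.73 (SD, n = 5), with a log2 difference of -0.85 (limma adjusted p = 0.37). Gpx5, an epididymal glutathione peroxidase, was called higher, at 35.8 ± 7.43 (SD, n = 6) and 62.0 ± 27.8 (SD, n = 5; limma adjusted p = 0.49), and lost its call without the 3 mice with high Epcam (log2 difference 0.41). Its r with Epcam was 0.03.

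Of 10 adipocyte genes, Pnpla2, a triglyceride lipase, was called higher in pKO mice (log2 difference 0.55). Fabp4, the most abundant adipocyte gene, had a log2 difference of 0.09 (limma adjusted p = 0.93). Of 10 fibroblast and progenitor genes, Dpp4 and Dcn were called higher, with log2 differences of 0.53 and 0.37. Of 10 endothelial genes Kdr was called higher (0.44), and the most abundant, Egfl7, had a log2 difference of 0.03. Of 10 macrophage genes, Itgam, Itgax and Ctss were called lower, with log2 differences of -0.72, -0.90 and -0.57. None of these had an adjusted p of 0.1 or less (smallest 0.37, limma). WT mice had 61334 to 72796 normalised tags of the fibroblast list in sum and pKO mice 69402 to 84014, and for the macrophage list the sums were 8559 to 15220 and 7882 to 10620. The part of these cell types in the levels of the 10 genes was not tested.

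Promoter sequences (RefSeq, GRCm38.p6, 250 bases before to 50 after the start) were on hand for 6 of the 10 genes. The motif CATTCC, read on both strands as CATTCC or GGAATG, is the core recognised by TEAD factors. It occurred in the promoters of Lrrn4, Upk3b, Gpm6a and Krt14 and in 14.7% of the 32851 promoters of all genes. The r of Upk3b and Lrrn4 was 0.59 over the 11 mice and 0.003 without the 2 farthest mice. A link between a match and covariation was not tested. The windows of Upk3b and Lrrn4, the genes of the mesothelial group whose promoters were on hand, are shown with the match in capitals. They are given on the strand of the gene.
Upk3b: aggaacggaCATTCCgagctggggaagaca
Lrrn4: gggctggagctgGGAATGccaggtctatgg
The Upk3b window is chr5:136038246-136038275 on the plus strand, with the match 241 bases upstream of the start. The Lrrn4 window is chr2:132881041-132881070 on the minus strand, with the match 196 bases upstream. TATAAA occurred in the promoters of Krt8 and Gpm6a and in 13.6% of all promoters, and GGGCGG in that of Gpm6a and in 35.7% of all promoters. GCGTGGGNG, a motif of EGR and WT1 zinc fingers, occurred in none of the 6 and in 1.90% of all promoters. A match is a description of these letters only.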

How the data were processed

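Whole eWAT of 6 WT and 5 pKO mice was profiled by SOLiD SAGE. The authors aligned tags with a modified SOLiD SAGE analysis software, and the submitters' processing notes name the mm10 build and edgeR 3.2.3. The deposited signal is tag counts divided by a size factor per library. All values (100%) were whole multiples, within 0.01, of the value of 1 tag (0.836 to 1.19), and tag counts were recovered from it. Each pair of libraries differed by more than sampling noise (smallest chi-square 15.8 per degree of freedom), so none was treated as a duplicate, and the labels give each as 1 mouse.

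Log2(value + 1) of 15453 genes was fitted with limma 3.58.1 (trend, Benjamini-Hochberg) in R 4.3.3. On this log2 scale, changes of sparsely tagged genes come out too small. A call followed the study's thresholds, an unadjusted p of 0.05 or less and 50 or more normalised tags as the mean of one genotype. The fits were checked on simulated data. Alternatives were other scalings, pseudocounts, filters, edgeR 4.0.16 and DESeq2 1.42.0 on recovered tags, a replicate block and leaving out mice. The members and lists were chosen with earlier results of these data known. Named genes are the 10 members, in each other list up to 6 called genes and the most abundant one, the 10 genes most and 3 least like Upk3b, and Mest. Epcam, Cdh1, Cldn7, Dsg2, Dsp, Esrp1, Prss8, Pkp2, Adam7, Aqp9, Lcn2 and Krt7 were named after their values were seen. No batch is given for the mice.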

Additional observations from a re-analysis of the deposited data

Results flagged for a closer look

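Among 126 groups of mice checked (53 genes and 10 summed list levels in each genotype), 17 had a mouse far from the others by Dixon's test. Chance alone flags about 1 in 20 independent groups that were picked without sight of their values. Epcam, Cdh1, Cldn7, Dsg2, Dsp, Esrp1, Prss8, Pkp2, Adam7 and Krt7 were added after their values were seen. The count of 17 therefore cannot be set against that share. pKO mouse 1 accounted for 10 of the 17 and WT mouse 4 for 3.

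Of the 10 genes, Krt8 stood out at 198 normalised tags in pKO mouse 1, against 39.9 to 64.4 in the other pKO mice, and Msln at 151 in WT mouse 3, against 98.1 to 118 in the other WT mice. Epcam was at 161 in WT mouse 4 (0.914 to 47.3 in the other WT mice) and at 203 in pKO mouse 1 (1.15 to 18.3 in the other pKO mice). Cdh1 was at 58.3 and 61.8 and Dsp, the gene of desmoplakin, at 35.0 and 37.8 in the same mice. In pKO mouse 1, Cldn7 was at 130, the splicing regulator Esrp1 at 40.3 and Adam7 at 43.8, against at most 17.3, 5.09 and 9.16 in the other pKO mice. Dsg2, a desmosomal cadherin, was at 17.2 and the protease Prss8 at 25.8 in the same mouse, against at most 0.883 and 7.12. The summed level of the simple epithelial and junction genes was 3664 in pKO mouse 1, against 2135 to 2358 in the others. For the epididymal genes it was 131 in WT mouse 5, against 66.5 to 81.6. Among the genes most and least like Upk3b, Wdr78 was at 62.7 in WT mouse 3 and Ppp3r1 at 3307 in WT mouse 6.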

How the results depend on the processing

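The log2 differences of the 10 genes were computed under 17 alternatives, giving 170 values. Upk3b changed sign in 2 of them, to -0.040 without pKO replicate 1 and to -0.022 without WT replicates 4 and 5 and pKO replicate 1, and in the other 168 the sign was kept. With each mouse left out, the difference of Upk3b was -0.040 to 0.47. The median log2 difference was 0.39 to 0.69 with each mouse left out. Over all genes, calls were 328 to 639 higher and 415 to 844 lower with each mouse left out, 515 and 480 with edgeR on recovered tags, and 328 and 732 with total-count scaling, against 480 and 572. At an adjusted p of at most 0.1, DESeq2 called 58 genes higher and 63 lower, against 1 and 4 with limma. Other mesothelial genes called higher numbered 5 with DESeq2 and 2 to 6 with each mouse left out (5 without WT replicate 3 and 6 without pKO replicate 5), and those called lower numbered 0 with edgeR and with DESeq2 and 0 to 2 with each mouse left out (0 without pKO replicate 3 and 2 without pKO replicate 5).

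Genes called with Upk3b numbered 467 with total-count scaling, 11 with Lrrn4 and 0 with Msln as the anchor, 13 without the 3 mice with high Epcam and 63 to 848 with each mouse left out. The slope of Msln on Upk3b was 0.52 to 0.82 with each mouse left out. Genes called with Epcam numbered 373 with a pseudocount of 10, 2 without the 3 mice and 91 to 274 with each mouse left out. They numbered 91 without pKO replicate 1 and 143 without WT replicate 4. Median r over all pairs was 0.29 in WT mice, 0.51 without the 3 mice and 0.32 to 0.51 with each mouse left out. In the mesothelial group it was 0.39 in WT mice and 0.38 to 0.79 with each mouse left out, and in the keratin group 0.85 in WT mice, 0.38 on linear values and 0.48 to 0.83 with each mouse left out. The causes were not tested.

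Mice that share a replicate number did not deviate together (r of -0.092 to 0.14 over 5 pairs). That check cannot tell whether some of them shared a litter, cage or run. With the replicate block, which drops WT replicate 6, 5 other mesothelial genes were called higher. Under the same block 0 genes were called with Upk3b and 59 with Epcam. Genes with few tags, such as Krt18 with as few as 9 tags in a library, are limited by counting error.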
